A study of Mus musculus with 4 samples.

Results

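Nuclear receptor genes and the Ppargc1 coactivator genes were examined in lung endothelial cells (ECs) after unilateral pneumonectomy (PNX), the surgical removal of 1 lung, which is followed by growth of the remaining lobes. The genes were taken by symbol: a symbol built as Nr, digit, letter, digit (23 genes, with 2 others of this form not analysed here), or 1 of 21 receptors and coactivators with other names. Each gene was measured on its transcript with the most counts. The rule gave 44 genes, 42 receptors and 2 coactivators, of 24063 symbols in the tables. Nuclear receptors are transcription factors, most of which bind a small lipid-soluble ligand such as a steroid, a retinoid, thyroid hormone, an oxysterol or a bile acid and then exchange corepressors for coactivators on DNA. Orphan receptors have no agreed natural ligand, and the activity of some is set mainly by how much of them is made. Ppargc1a and Ppargc1b encode PGC-1 alpha and PGC-1 beta, coactivators that dock on these receptors and drive genes of mitochondria and fuel use. In the lung, the glucocorticoid receptor and the retinoic acid receptors are known for their roles in maturation and alveolar growth.

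The ECs were isolated from lungs of 8-week-old C57BL6J mice (C57BL6 in the labels) with magnetic beads carrying an antibody to CD31, a surface protein of ECs that some leukocytes also carry. Post-PNX cells were collected 7 days after surgery, and the controls came from sham-operated mice. Neither group carried a transgene or deletion, and the methods of the study name ketamine with xylazine for anaesthesia and meloxicam for pain relief after surgery. Each group had 2 libraries of polyadenylated RNA, and each library was a pool from 2 mice, so that the spread between libraries is one between pools and the p-values measure that spread only.

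Reads counted on 1 transcript per gene came to between 41367438 and 50952879 per library, and 3 counts, the limit that a count of 0 allows for counting error only, equalled 0.0589 to 0.0725 CPM. Replicate libraries differed by more than sampling noise, with a mean chi-square per gene of 1.76 between the sham and 1.52 between the post-PNX libraries, against 118 and 133 across groups. The labels give the mice as male, but all 4 libraries had 0 counts on 44 Y-linked genes and between 29890 and 36875 counts on Xist, the RNA of the inactive X chromosome. The sex that the RNA shows therefore goes against the label in every library and in both groups alike. The 12 endothelial markers checked, Pecam1 and Cdh5 among them, were all detected, and their summed normalised count was 551913 and 557598 in sham against 462218 and 463893 in post-PNX libraries. Genes of other cell types were detected in every library as well. The summed count of 7 fibroblast genes was 61429 and 62019 in sham and 223349 and 224945 in post-PNX libraries, and that of 6 airway genes was 170873 and 171794 in sham and 83876 and 81082 in post-PNX libraries. On the fibroblast list 5 genes rose, while Pdgfra went from 14560 and 14250 in sham to 12325 and 12250 in post-PNX libraries. Tcf21, also on that list, had overlapping groups. In bulk RNA of this kind, fewer cells of a type and less RNA per cell cannot be told apart.

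More of the nuclear receptor genes were lower than higher post-PNX. Of the 44 genes, 35 passed the filter on low counts, 33 receptors and both coactivators, and 9 receptor genes did not pass. With the quasi-likelihood test of edgeR, adjusted over 16208 genes by the Benjamini-Hochberg method, 17 of the 35 genes were lower post-PNX at an adjusted p under 0.01, against 27.8% of all genes tested. Another 6 were higher, against 29.3% of all genes tested, and 12 did not pass. The 23 that passed in either direction were 65.7% of the 35, near the 57.1% of all genes tested. Lower genes made up 48.6% and higher genes 17.1% of the 35. Beyond a 2-fold change, 1 gene was higher, the bile acid receptor gene Nr1h4 (background 5.9%), and 2 were lower, Esr2 and Ppargc1a (background 1.66%). Without the first post-PNX library these gave −0.94 and −0.97, inside the 2-fold limit, while Pgr (−1.0019) and Nr3c2 (−1.04) passed it. The median log2 fold change, post-PNX over sham, was −0.12 over the 35 genes and 0.00 over all genes.

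**Figure D1:**
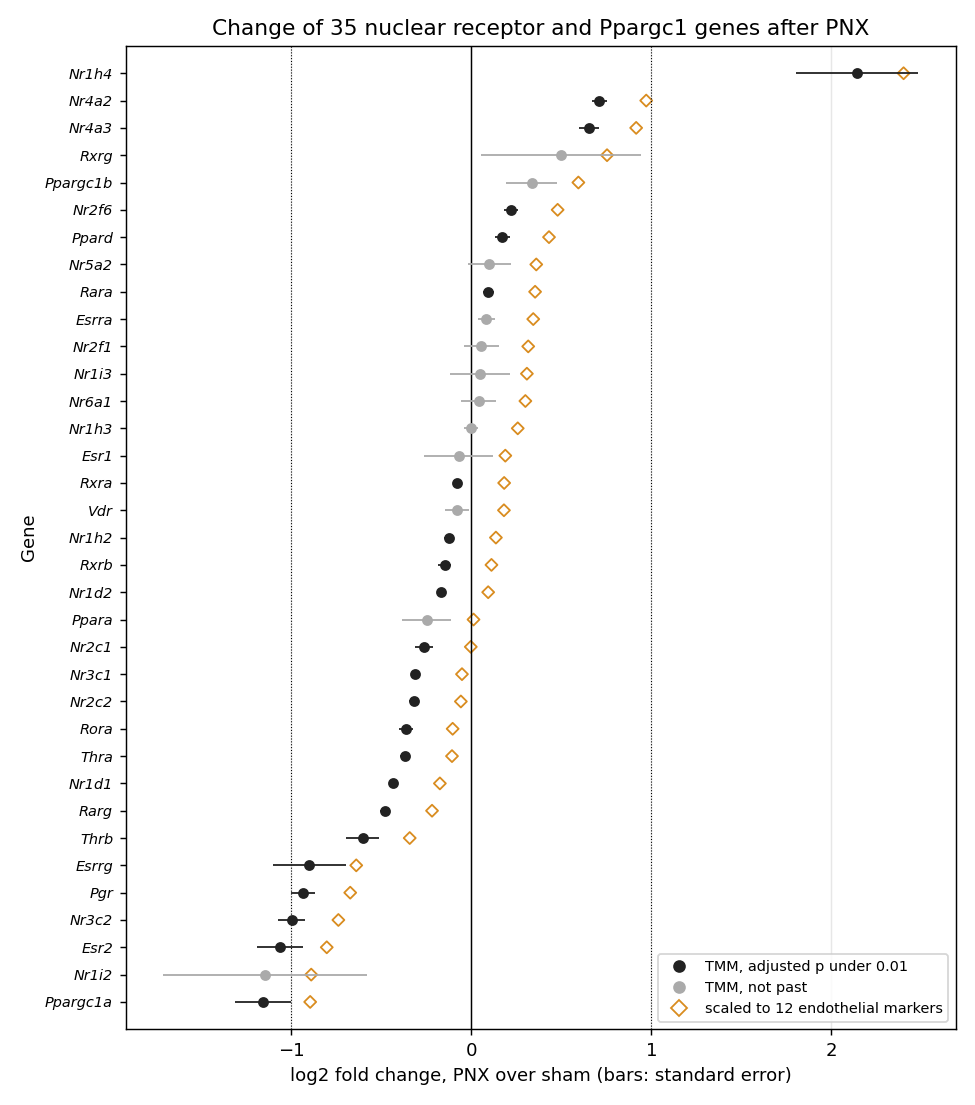
The horizontal axis gives the log2 fold change (post-PNX over sham) of each of the 35 tested genes, with its standard error as a bar and dotted lines at a 2-fold change. Filled points are from TMM scaling, dark where the adjusted p was under 0.01, and open diamonds are from scaling to 12 endothelial marker genes, which moved every gene up by about 0.26.

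These directions are relative to the total RNA of each library. When libraries were instead scaled to the 12 endothelial markers, the median of all genes moved up by 0.26 on the log2 scale, and 16 of the 35 genes were higher and 9 lower, against 59.4% and 8.69% of all genes tested under that scaling. The 9 genes lower with endothelial scaling, all of them also lower with TMM, were Esr2, Pgr, Nr3c2, Esrrg, Rarg, Thra, Thrb, Nr1d1 and Ppargc1a. All 6 genes higher with TMM stayed higher, namely Rara, Ppard, Nr1h4, Nr2f6, Nr4a2 and Nr4a3. Rxra, Rxrb, Nr1h2 and Nr1d2 turned from lower to higher, and Nr3c1, Rora, Nr2c1 and Nr2c2 no longer passed. Esrra, Nr1h3, Nr2f1, Nr5a2, Nr6a1 and Ppargc1b, which did not pass with TMM, were higher under it, by 0.26 (Nr1h3) to 0.59 (Ppargc1b).

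The abundance of the receptors was compared on the deposited FPKM scale, which divides by transcript length. Of the 44 genes, 11 had a mean FPKM over 10 across the 4 libraries, 11 lay between 1 and 10, and 22 were under 1. The heme receptor gene Nr1d1, also called Rev-erb alpha, a repressor in the circadian clock, was the most abundant, with 64.3 and 65.9 FPKM in sham and 48.0 and 48.8 FPKM in post-PNX libraries. Its range did not meet that of the next gene, Nr1h2, at a mean of 29.3 FPKM. Nr1h2, Nr3c1, Nr1d2, Thra and Rarg followed with means between 29.3 and 24.1 FPKM, and the range of each over the 4 libraries overlapped that of its neighbour in the order. Rxra (15.1 FPKM) lay below Rarg without overlap and above Rara (13.7 FPKM) without overlap. Rara, Nr1h3, Rxrb and Nr2f6 overlapped their neighbours from 13.7 to 11.3 FPKM, and Nr2f6 lay above Nr2c2 (8.05 FPKM) without overlap. The 6 most abundant genes held 64.0% of the summed FPKM of the 44 genes in each sham library and 58.0% and 58.4% in the post-PNX libraries. Nr3c2, with a mean of 1.69 FPKM, was the next of the steroid receptor genes after Nr3c1, and the coactivator genes Ppargc1a and Ppargc1b had means of 0.237 and 0.448 FPKM.

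**Figure D2:**
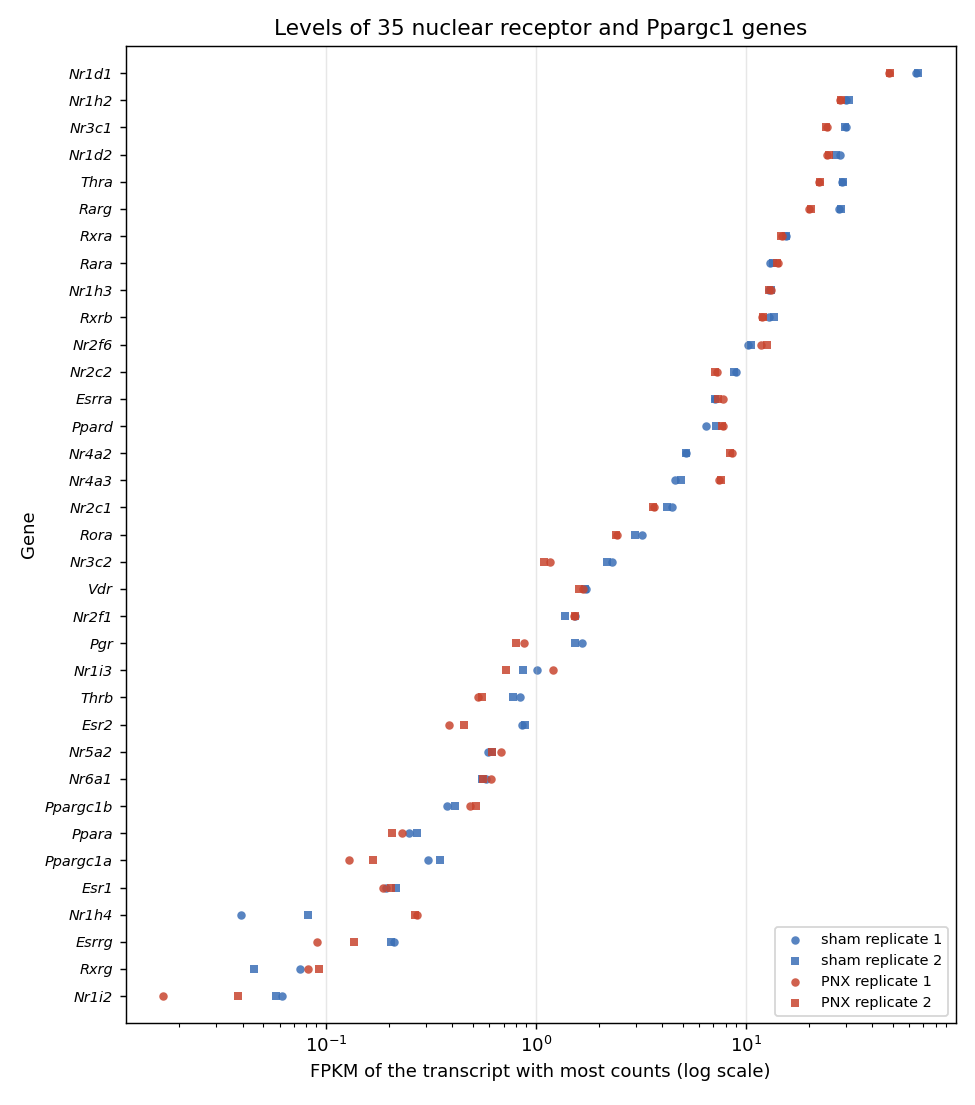
Each row is a gene and each point the deposited FPKM of 1 library on a log axis (blue, sham; red, post-PNX; circles and squares, replicates 1 and 2), with genes ordered by their mean. Nr1d1 stands alone at the top at 48.0 to 65.9 FPKM, and the genes under 0.1 FPKM at the bottom rest on few reads.

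The steroid receptor genes held the 3 largest falls among the receptor genes that passed: 4 of the 5 were lower post-PNX and none was higher, with a median log2 fold change of −0.93. Esr2 (chr12:76120419-76177259, mm10) encodes estrogen receptor beta. Its normalised counts were 209 and 215 in sham and 93.4 and 110.3 in post-PNX libraries. Both post-PNX libraries lay far below both sham libraries, and the gene was 2.09-fold lower (log2 fold change −1.06 ± 0.129 SE, n = 2 per group, edgeR quasi-likelihood adjusted p = 9.2e-11). Pgr (chr9:8898900-8968611) encodes the progesterone receptor, itself a classical estrogen-induced gene. It had 836 and 779 normalised counts in sham and 441 and 403 in post-PNX libraries. The groups did not overlap, and Pgr was 1.91-fold lower (log2 −0.93 ± 0.0666, edgeR adjusted p = 2.4e-19). Nr3c2 (chr8:76898083-77245012) encodes the mineralocorticoid receptor, which binds aldosterone and also corticosterone. Its normalised counts were 695 and 657 in sham and 348 and 328 in post-PNX libraries. Both post-PNX libraries lay below both sham libraries, by a log2 fold change of −1.0 ± 0.0725 (edgeR adjusted p = 5.1e-19), at the 2-fold limit without passing it.

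Nr3c1, the glucocorticoid receptor gene, was by far the most abundant of the steroid receptor genes and changed less. It had 13941 and 13883 normalised counts in sham and 11240.4 and 11154 in post-PNX libraries. The replicates were nearly equal while the groups were apart, and the log2 fold change was −0.31 ± 0.0205 (edgeR adjusted p = 6.0e-21). Under scaling to endothelial markers its log2 fold change was −0.05, and it did not pass. Esr1, the estrogen receptor alpha gene, had 61.6 and 68.3 normalised counts in sham and 59.0 and 64.6 in post-PNX libraries. Its groups overlapped and the difference was −0.07 ± 0.193 on the log2 scale (edgeR adjusted p = 0.757), and no change was detectable at this depth.

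**Figure D3:**
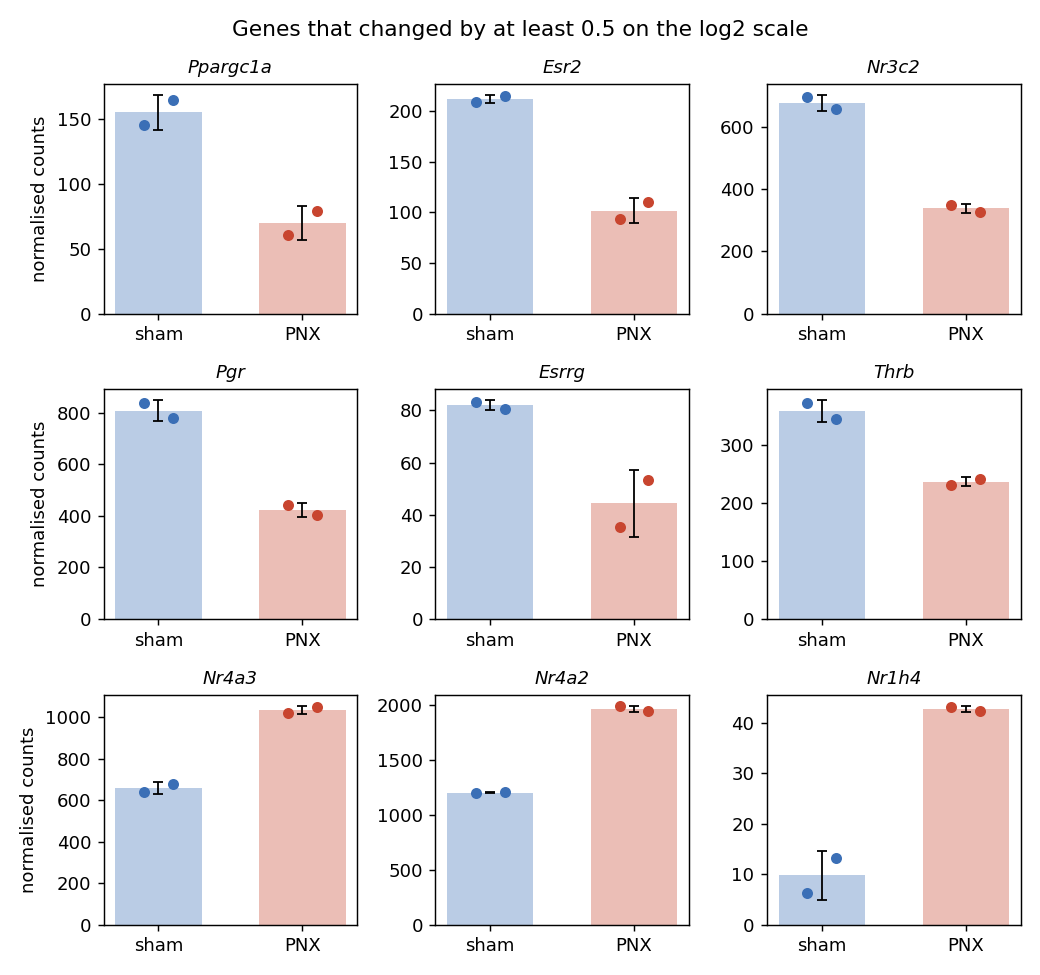
Normalised counts (vertical axes from 0, each gene on its own scale) are shown for the 9 genes with an adjusted p under 0.01 and a log2 fold change of at least 0.5 in either direction. Points are the 2 libraries of each group, bars their mean and error bars the SD. The gap between sham and post-PNX points follows from this choice of genes and is no separate result. Esrrg and Ppargc1a show the widest gaps between post-PNX replicates relative to their level.

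The estrogen-related receptors, which bind no estrogen and are partners of the PGC-1 proteins at mitochondrial genes, did not move together. Esrrg (chr1:187608510-188214885) had 83.3 and 80.5 normalised counts in sham and 35.4 and 53.5 in post-PNX libraries. The post-PNX replicates stood apart from each other, although both were under the sham level, and the log2 fold change was −0.90 ± 0.202 (edgeR adjusted p = 9.5e-05). Without the first post-PNX library it was −0.61 with an edgeR adjusted p of 0.0299, past the threshold no longer. Esrra, the most abundant of the family at a mean of 7.34 FPKM, gave a log2 fold change of 0.08 and did not pass with TMM (edgeR adjusted p = 0.113), and Esrrb had at most 3 counts in every library.

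The coactivator gene Ppargc1a (chr5:51454249-52115853) had 146 and 165 normalised counts in sham and 60.9 and 79.1 in post-PNX libraries. The groups did not overlap and Ppargc1a was 2.23-fold lower, the largest fall among the genes that passed in the fit of all 4 libraries (log2 −1.16 ± 0.155, edgeR adjusted p = 1.9e-09). Ppargc1b, which encodes the related PGC-1 beta, had 102 and 111 normalised counts in sham and 130 and 138 in post-PNX libraries. Both post-PNX libraries were above both sham libraries, but the log2 fold change of 0.33 ± 0.141 did not pass the threshold with TMM (edgeR adjusted p = 0.0338), and with endothelial scaling the gene was called higher (0.59, edgeR adjusted p = 2.9e-04). The difference between the changes of the coactivators was not tested.

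Among the retinoid receptors, which bind retinoic acid (the RARs) or form the shared dimer partner of many other receptors (the RXRs), the gene with the largest change among those that passed was Rarg (chr15:102234938-102257522). Its normalised counts were 6038 and 6161 in sham and 4332 and 4419 in post-PNX libraries. The groups were widely apart relative to the replicates, and Rarg was 1.39-fold lower (log2 −0.48 ± 0.0264, edgeR adjusted p = 1.6e-24). Rara was higher by 0.09 on the log2 scale (edgeR adjusted p = 0.0071), a call that was lost without either post-PNX library or without the first sham library (0.07 to 0.10). Rxra (−0.08) and Rxrb (−0.15) were lower at these small sizes with TMM scaling and higher with endothelial scaling. Rxra did not pass when any of the 4 libraries was left out (−0.08 to −0.07), nor Rxrb without the second sham library (−0.11). Rxrg had 7 to 13 counts per library and did not pass.

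Both thyroid hormone receptor genes were lower. Thra (chr11:98740776-98769006) had 4732 and 4787 normalised counts in sham and 3670.2 and 3702 in post-PNX libraries, without overlap (log2 −0.37 ± 0.0281, edgeR adjusted p = 4.1e-18). Its gene span shares 1075 bases at its end with Nr1d1 on the opposite strand. Whether counting used strand is not given in the sources used here, so the values of these genes are uncertain to that extent. Thrb (chr14:17659225-18040097), at 371 and 345 normalised counts in sham and 231 and 242 in post-PNX libraries, changed more (log2 −0.60 ± 0.0916, edgeR adjusted p = 5.0e-08). The replicates were close and the groups did not overlap. Vdr, the vitamin D receptor gene, gave −0.08 and did not pass (edgeR adjusted p = 0.306).

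The clock receptors repress (Nr1d1, Nr1d2) or activate (the ROR genes) through the same DNA element, and all 3 that could be tested were lower with TMM scaling. The methods of the study do not give the hour of collection for either group. What part the time of day had in these or the other clock genes was not tested. Nr1d1 (chr11:98767932-98775377) had 13099 and 13402 normalised counts in sham and 9710.4 and 9880 in post-PNX libraries. The post-PNX libraries were 1.35-fold lower without overlap (log2 −0.44 ± 0.0213, edgeR adjusted p = 4.9e-27). Nr1d2 (chr14:18204056-18239106), which encodes Rev-erb beta, had 9560.2 and 9196 normalised counts in sham and 8294 and 8417 in post-PNX libraries. Its groups did not overlap, and the log2 fold change was −0.17 ± 0.0228 (edgeR adjusted p = 3.1e-09) with TMM and 0.09 with endothelial scaling. Rora gave −0.36 (edgeR adjusted p = 4.4e-13) and, with endothelial scaling, −0.10, which did not pass. Its short transcript had 19 to 36 counts per library against 1720 to 2838 for the long one. Rorb had 4 to 9 counts per library and was not tested.

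The lipid and bile acid receptors went different ways. Nr1h4 (chr10:89454234-89533645) encodes FXR, the bile acid receptor, best known from liver and intestine. It rested on few reads, with 7 and 13 counts in sham and 44 and 38 in post-PNX libraries. Every post-PNX library was above every sham library, and the gene was 4.42-fold higher by fitted value (log2 2.14 ± 0.337, edgeR adjusted p = 1.2e-07). The size depended on which sham library was kept, with log2 1.68 without the first and 2.73 without the second, and passed in both. At a mean of 0.164 FPKM it was still among the least abundant genes tested. The 4 hepatocyte markers checked had between 15.6 and 30.5 summed normalised counts per library, and the 1 of them above the filter gave a log2 fold change of −0.03 and did not pass.

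Nr1h2 and Nr1h3 encode the oxysterol receptors LXR beta and LXR alpha, which turn on cholesterol export. Nr1h2 (chr7:44549616-44553968) had 4445 and 4631 normalised counts in sham and 4136 and 4186 in post-PNX libraries. The groups did not overlap, and the log2 fold change was −0.12 ± 0.0282 by TMM (edgeR adjusted p = 1.1e-04) and 0.14 with endothelial scaling. Nr1h3 had overlapping groups and a log2 fold change of 0.00 with TMM (edgeR adjusted p = 0.952). Of the fatty acid receptors, Ppard was higher by 0.17 (edgeR adjusted p = 3.4e-04; 0.09 and not past without the first sham library) and Ppara did not pass at −0.25 (edgeR adjusted p = 0.102). Nr1h5 had 4 to 9 counts per library and was not tested. The xenobiotic receptor genes Nr1i2, with 3 to 12 counts per library, and Nr1i3, with overlapping groups, did not pass. Nr1i3 shares 1044 bases with Tomm40l, so its values carry the uncertainty given for Thra.

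The NR4A receptors are immediate-early genes that act without a known ligand, and both of those included rose. Nr4a2 (chr2:57106830-57124003), which encodes Nurr1, had 1204 and 1206 normalised counts in sham and 1991 and 1952 in post-PNX libraries. The replicates were nearly equal and the groups far apart, with a 1.64-fold rise (log2 0.71 ± 0.0417, edgeR adjusted p = 3.3e-23). Nr4a3 (chr4:48045078-48086447), which encodes Nor1, had 638 and 679 normalised counts in sham and 1021 and 1051 in post-PNX libraries. Its groups did not overlap either, and the rise was 1.57-fold (log2 0.65 ± 0.0556, edgeR adjusted p = 3.6e-16). Of the other orphan receptors, Nr2f6 was higher by 0.22, Nr2c1 (−0.26) and Nr2c2 (−0.32) were lower with TMM and did not pass with endothelial scaling, and Nr2f1, Nr5a2 and Nr6a1 did not pass with TMM, all 3 with overlapping groups. Nr2c2 overlaps Mrps25 over 3547 bases.

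Promoters are shown for the genes beyond a 2-fold change and for the NR4A genes that rose together. Each is the 250 bases before a transcript start in RefSeq (build GRCm38.p6, the build of the counts), written 5′ to 3′ on the strand of the gene. For Nr1h4, Nr4a3 and Ppargc1a that start lies inside the gene span given above. The spans are per symbol and were not looked up for the transcript counted. Capitals mark TGACG (the half-site of the cAMP response element), AGGTCA (the half-site that many nuclear receptors bind) and CACGTG (an E-box, the element of the clock activators), each searched on both strands, so that CGTCA and TGACCT are the first and second of these reversed.
Nr4a2 (chr2:57124004-57124253, minus strand): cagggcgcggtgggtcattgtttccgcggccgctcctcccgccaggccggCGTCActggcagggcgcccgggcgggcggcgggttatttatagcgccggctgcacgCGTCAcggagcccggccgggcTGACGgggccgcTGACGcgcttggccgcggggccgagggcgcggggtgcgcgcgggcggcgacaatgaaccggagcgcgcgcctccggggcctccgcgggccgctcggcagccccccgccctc
Nr4a3 (chr4:48045055-48045304, plus strand): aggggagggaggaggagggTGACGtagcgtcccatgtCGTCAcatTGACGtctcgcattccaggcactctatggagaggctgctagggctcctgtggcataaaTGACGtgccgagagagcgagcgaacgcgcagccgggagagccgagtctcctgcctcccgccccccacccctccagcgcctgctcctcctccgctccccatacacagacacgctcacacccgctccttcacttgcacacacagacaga
Nr1h4 (chr10:89506659-89506908, minus strand): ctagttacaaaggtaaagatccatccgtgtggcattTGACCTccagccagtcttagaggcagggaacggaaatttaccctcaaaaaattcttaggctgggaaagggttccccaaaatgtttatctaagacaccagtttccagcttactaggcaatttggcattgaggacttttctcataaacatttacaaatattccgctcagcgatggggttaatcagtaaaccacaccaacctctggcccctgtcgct
Esr2 (chr12:76177260-76177509, minus strand): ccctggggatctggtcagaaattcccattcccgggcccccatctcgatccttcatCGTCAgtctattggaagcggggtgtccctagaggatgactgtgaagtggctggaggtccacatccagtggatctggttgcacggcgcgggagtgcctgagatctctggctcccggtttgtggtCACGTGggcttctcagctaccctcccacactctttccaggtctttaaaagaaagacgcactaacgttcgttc
Ppargc1a (chr5:51567726-51567975, minus strand): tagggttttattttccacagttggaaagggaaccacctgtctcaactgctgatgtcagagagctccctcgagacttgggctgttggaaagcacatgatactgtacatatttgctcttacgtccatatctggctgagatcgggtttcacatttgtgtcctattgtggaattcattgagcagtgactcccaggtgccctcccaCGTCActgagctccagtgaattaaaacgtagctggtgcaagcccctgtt
Nr4a2 and Nr4a3 each held 4 TGACG half-sites, at 200, 144, 123 and 111 bases before the start in Nr4a2 and at 231, 213, 205 and 147 in Nr4a3. TGACG occurred at least once in 17.8% of 32851 mouse promoters of this length and in 13 of the 40 receptor and coactivator genes that the table holds. How many promoters held 4 or more was not counted, so these shares do not say how unusual 4 sites are. Nr1h4 held 1 AGGTCA half-site in reverse, a motif found in 14.0% of all promoters and in 9 of the 40. Esr2 held 1 TGACG in reverse and the only E-box of the 5 sequences, the latter found in 6.02% of all promoters and in 5 of the 40. Ppargc1a held 1 TGACG in reverse, 49 bases before the start. These matches are descriptions of the letters and not of binding.

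The 9 receptor genes that were not tested had few or no reads. Nr2e1, Nr2e3 and Nr0b1 were at 0 in all 4 libraries, which allows up to 3 counts in each. Esrrb, Hnf4a, Nr5a1 and Nr0b2 had at most 3 counts in every library. Hnf4a and Nr0b2, the gene of the corepressor SHP that FXR induces in liver, belong to liver and gut, and Nr5a1 to steroid-producing glands. Nr1h5 and Rorb had more reads but stayed below the filter.

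Genes downstream of the receptors were counted by list, with the same test and beside the background of all genes given above. Counts are with TMM scaling unless stated. With endothelial scaling the LXR list had 7 genes higher and 1 lower, and the PPAR list 9 and 1. The glucocorticoid receptor list had 6 and 4, and the circadian clock list 10 and 2. The list of PGC-1 and estrogen-related receptor targets had 14 and 0, and the enzymes and carriers 7 and 0. Of all genes tested, 59.4% were higher and 8.69% lower under that scaling. Of 8 tested LXR target genes 3 were higher and 3 lower, with a median log2 fold change of −0.03. Abca1, the cholesterol exporter, rose from 3900 and 3832 to 4641 and 4699 normalised counts (log2 0.27 ± 0.028, edgeR adjusted p = 4.6e-13). Scd1, the stearoyl-CoA desaturase, which had the most counts of the list, fell from 22721 and 22608 to 15736 and 15805 (log2 −0.52 ± 0.019, edgeR adjusted p = 1.5e-33). Both are textbook LXR targets, and they went in opposite directions under either scaling.

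Of 13 PPAR target genes 5 were higher and 2 lower, with a median of 0.04. Fabp4, a fatty acid carrier of capillary ECs, adipocytes and macrophages, rose from 1059 and 1057 to 2396 and 2432 normalised counts (log2 1.19 ± 0.041, edgeR adjusted p = 9.0e-35). Markers of these 3 cell types went different ways. All 8 macrophage markers were higher, and their summed count went from 167233 and 166482 to 218899 and 218220. Of 4 tested adipocyte markers 2 were higher and 1 lower, and of 12 endothelial markers 1 was higher and 10 lower. What part any of these cell types had in the rise of Fabp4 was not tested. Cpt1a, the gate of fatty acid entry into mitochondria and the list's gene with most counts, was higher by 0.07 (edgeR adjusted p = 0.00487), a call lost without the second library of either group (0.05 and 0.06).

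The glucocorticoid receptor targets were divided, with 4 of 10 higher, 5 lower and a median of −0.09. Mt2, a metallothionein, rose from 569 and 572 to 1141 and 1090 normalised counts (log2 0.97 ± 0.0562, edgeR adjusted p = 2.0e-23). Errfi1, an inhibitor of the EGF receptor, fell from 11150 and 11317 to 5586 and 5382 (log2 −1.03 ± 0.0235, edgeR adjusted p = 2.5e-44). Dusp1, a phosphatase of MAP kinases with the most counts of the list, gave −0.17 with TMM (edgeR adjusted p = 3.3e-12) and 0.10 with endothelial scaling.

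Of 15 circadian clock genes outside the receptors 5 were higher and 5 lower, with a median of −0.03. Nfil3, a repressor, rose from 787 and 837 to 1673 and 1644 normalised counts (log2 1.03 ± 0.0477, edgeR adjusted p = 3.2e-28). Arntl (log2 −0.33, edgeR adjusted p = 8.3e-05) and Clock (log2 −0.35, edgeR adjusted p = 4.5e-17) were lower with TMM. With endothelial scaling they gave −0.07 and −0.09. Per1, a core repressor of the clock that is also on the glucocorticoid list, fell from 10251 and 10332 to 6830.3 and 6578 (log2 −0.62 ± 0.0231, edgeR adjusted p = 6.6e-33). Tef, with the most counts, gave −0.03 and did not pass (edgeR adjusted p = 0.189).

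The targets of PGC-1 and the estrogen-related receptors did not fall with Ppargc1a and Esrrg as a list: of 16 genes 7 were higher, 3 lower and 6 not past, with a median of 0.07. Cycs, the gene of cytochrome c, rose from 1437 and 1381 to 1887 and 1930 normalised counts (log2 0.44 ± 0.0409, edgeR adjusted p = 1.7e-14). Atp5b, a subunit of the ATP synthase with the most counts of the list, was higher by 0.21 (edgeR adjusted p = 3.1e-15). Nrf1, a regulator of mitochondrial genes, had the largest fall, at −0.18 (edgeR adjusted p = 1.8e-04). It gave −0.15 and did not pass without the first post-PNX library, and 0.08 with endothelial scaling.

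**Figure D4:**
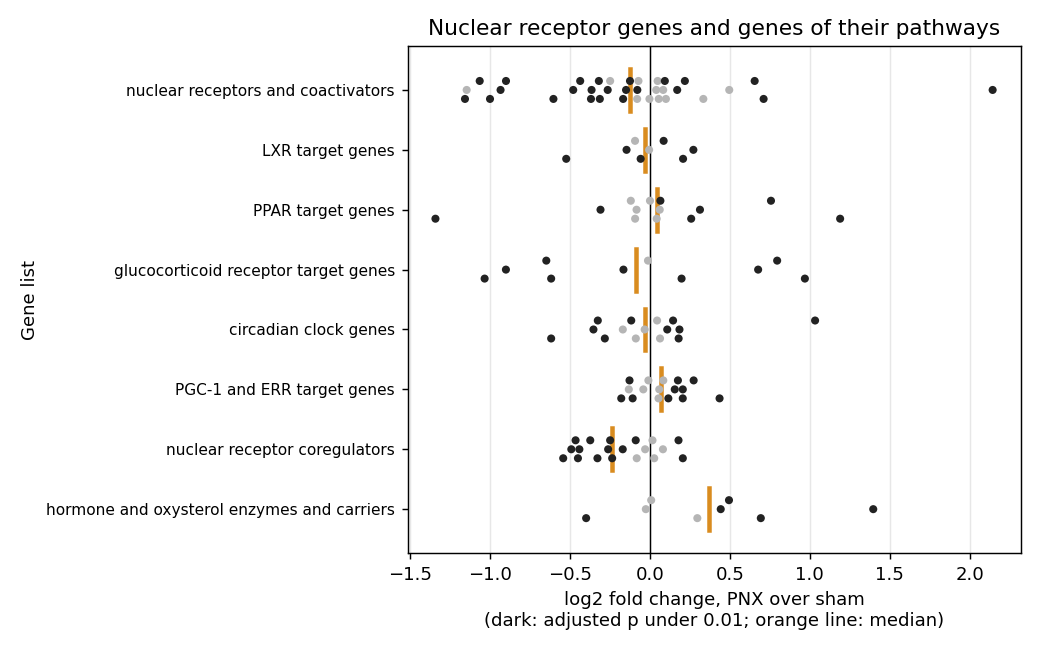
Each point is a tested gene, placed by its log2 fold change (post-PNX over sham), dark where the adjusted p was under 0.01, with the median of each list as an orange line. The receptors and coactivators (median −0.12) and the coregulators (median −0.24) lie to the left of 0, and the enzymes and carriers (median 0.37) to the right.

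The coregulators that receptors recruit were mostly lower with TMM scaling, 12 of 19 against 2 higher and a median of −0.24, but with endothelial scaling 6 were lower, 8 higher and the median 0.02, beside the shares of all genes given above for that scaling. Nrip1, which encodes the corepressor RIP140 and is an estrogen-induced gene, had the largest fall, from 2160 and 2268 to 1484 and 1558 normalised counts (log2 −0.54 ± 0.0398, edgeR adjusted p = 8.5e-19). Ncor1, the nuclear receptor corepressor that Rev-erb proteins use and the list's gene with most counts, gave −0.26 with TMM (edgeR adjusted p = 1.9e-16) and level with endothelial scaling (0.00). Ncoa4, first described as a coactivator of the androgen receptor and now known for the turnover of ferritin, was higher by 0.21 (edgeR adjusted p = 1.5e-07).

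Enzymes and carriers that make, inactivate or move the ligands gave 4 higher, 1 lower and 3 not past among 8 tested, with a median of 0.37. Cyp7b1, which inactivates oxysterols, rose from 182 and 161 to 268 and 290 normalised counts (log2 0.69 ± 0.106, edgeR adjusted p = 5.7e-08). Cyp27a1, which makes an oxysterol, fell from 1147 and 1119 to 864 and 856 (log2 −0.40 ± 0.0509, edgeR adjusted p = 4.7e-10). Ch25h, which also makes an oxysterol, went the other way, from 1509 and 1341 to 1916 and 1970 (log2 0.44 ± 0.0431, edgeR adjusted p = 6.6e-14). Hsd11b1, which regenerates active glucocorticoid, had the most counts of the list and did not pass (log2 0.01, edgeR adjusted p = 0.76). Cyp19a1, the aromatase gene, and Cyp24a1, which degrades vitamin D, were at 0 in all libraries.

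Markers of several cell types other than ECs moved between the groups together with these genes. Of 12 endothelial markers 10 were lower and 1 higher, with a median of −0.25, which is lower than the median of the 35 receptor and coactivator genes. Airway markers (6 of 6 lower, median −0.97) and alveolar type 2 markers (6 of 6 lower, median −0.64) fell, with the summed count of the latter going from 297843 and 298714 to 192474 and 191369. T cell markers (7 of 7, median −0.77) and B cell markers (6 of 6, median −0.82) fell as well. The 6 receptor and coactivator genes that passed with a log2 fold change of −0.5 or less lay between −1.16 (Ppargc1a) and −0.60 (Thrb). They were picked for the size of their fall, so a likeness to these medians is no separate result.

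In the other direction, fibroblast (5 of 7 higher, median 2.27), mesothelial (6 of 6, median 1.21), cavity macrophage (6 of 8, median 1.36), macrophage (8 of 8, median 1.02) and smooth muscle and pericyte markers (6 of 7, median 0.46) were higher, and so were 2 of 4 tested adipocyte markers with 1 lower. Of the fibroblast markers, Pdgfra was lower (log2 −0.23, edgeR adjusted p = 2.4e-15) and Tcf21 did not pass (0.02, edgeR adjusted p = 0.677). Of the cavity macrophage markers, Lyve1 fell from 44903 and 44521 to 20125 and 20334 normalised counts (log2 −1.14, edgeR adjusted p = 2.9e-53). Icam2 was lower as well (log2 −0.08, edgeR adjusted p = 1.6e-04). No defining marker on any list was at 0 in all libraries. Of 5 pan-leukocyte markers 3 were higher and 1 lower. The study's cells were checked by flow cytometry as lacking CD45. Ptprc, the gene of CD45, had 11597 and 11534 normalised counts in sham and 11422 and 11665 in post-PNX libraries. It did not pass with TMM (log2 0.00, edgeR adjusted p = 0.905). What part the other cell types had in the change of any receptor or coactivator gene was not tested.

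**Figure D5:**
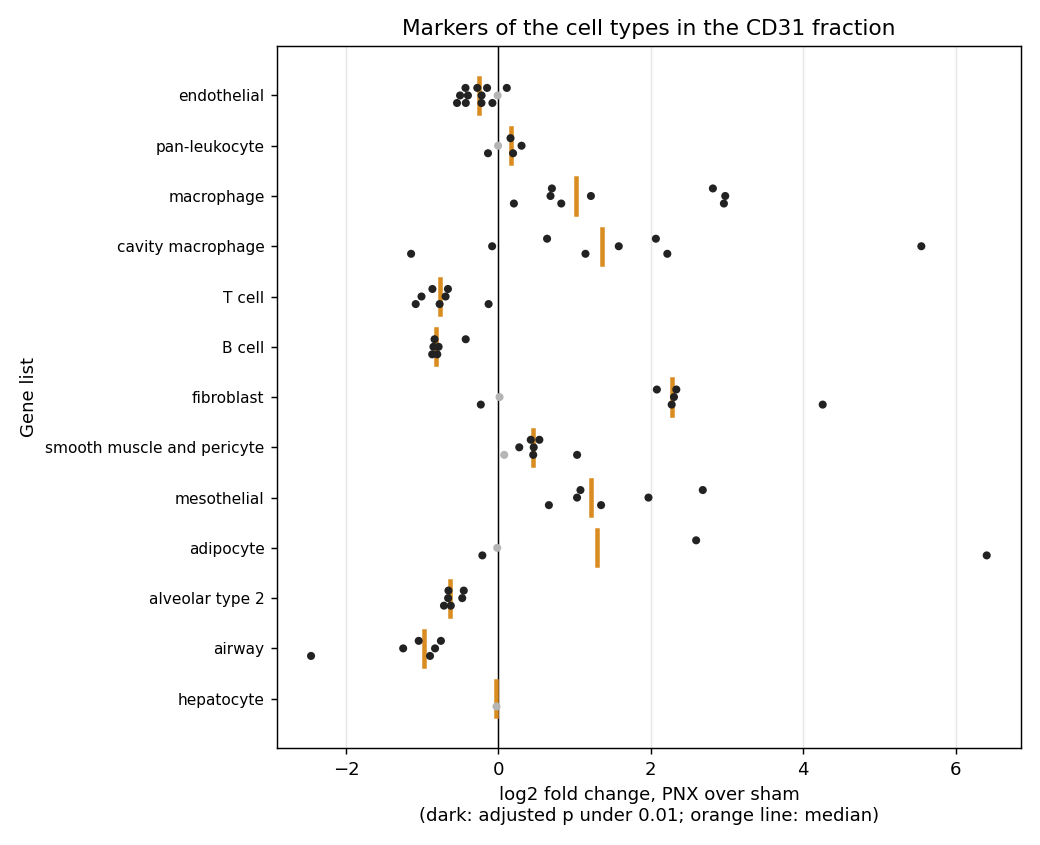
Each point is a tested marker gene placed by its log2 fold change (post-PNX over sham), dark where the adjusted p was under 0.01, with the median of each cell type list as an orange line. The medians of the fibroblast, mesothelial and macrophage lists lie to the right of 0. Those of the airway, alveolar type 2, T cell and B cell lists lie to the left.

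Alternative transcripts gave no second view of most genes. Of the 44 genes, 22 have more than 1 transcript in the tables, but a read on shared exons was counted for each of them. Both Rarg transcripts, for example, gave ratios of group means of −0.48 and −0.50 on the log2 scale, and those of Thrb −0.60 and −0.58.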

How the data were processed

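Mouse lung ECs isolated on CD31 beads were sequenced by the study as paired ends from a stranded mRNA kit, with 2 sham and 2 post-PNX libraries, each a pool from 2 mice. For each library the authors deposited read counts on 33068 RefSeq transcripts of mm10, without normalization, and beside them FPKM and TPM values. The submitters' processing notes name STAR, and the counting program, its strand setting and versions are not given in the sources used here. Since reads on shared exons count towards every transcript they overlap, 1 transcript per symbol, that with the most counts over the 4 libraries, was used.

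Counts were fitted in R 4.3.3 with edgeR 4.0.16 (filterByExpr, TMM, quasi-likelihood F test without covariates, Benjamini-Hochberg over 16208 genes). The thresholds, an adjusted p of 0.01 and a 2-fold change, are those of the study's methods. Normalised counts put every library at the mean TMM-corrected size. A standard error is the size of the log2 fold change over the square root of F. The deposited FPKM values were used only to order levels between genes, and the deposited TPM values were not used. Summed totals over all transcripts were 65763553 to 81282871 counts per library. Intervals and the floor of 3 counts cover counting error only.

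The receptor genes and all lists were chosen with earlier results of these data known. Genes were named by rule: receptors and coactivators past the threshold with a log2 fold change of at least 0.5 in size, the 6 with the highest FPKM, and from each pathway list the largest rise and fall with a mean of at least 50 counts and the gene with most counts. One gene that this rule names is not reported here. The others are given for completeness of each class, or because they went another way than a gene of their list that the rule names. Other settings tried were scaling to 12 endothelial markers, to library size only or by the size factors of DESeq2 1.42.0, its Wald test, a mean of at least 50 counts or no filter, summed transcripts, a block for the replicate number, and each library left out. The script was tested on simulated data. Promoters came from RefSeq (GRCm38.p6), which held 40 of the 44 genes.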

Additional observations from a re-analysis of the deposited data

How the results depend on the processing

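Directions rest on the scaling. With endothelial marker scaling, 16 receptor or coactivator genes were higher and 9 lower, against 59.4% and 8.69% of all genes tested. None was lower beyond 2-fold. The log2 fold change changed sign for Esr1 (0.19), Rxra (0.18), Rxrb (0.11), Vdr (0.18), Ppara (0.01), Nr1h2 (0.14), Nr1h3 (0.26), Nr1d2 (0.093), Dusp1 (0.10), Nrf1 (0.081) and Tef (0.23). With a mean of at least 50 counts, 0 genes were higher beyond 2-fold, since Nr1h4 was not tested there. With library size alone Nr1h3 was 0.0008. DESeq2's Wald test no longer called Esrrg (adjusted p = 0.0145), Rara (0.0971), Rxra (0.054), Rxrb (0.012), Ppard (0.0267), Cpt1a (0.0488) or Nrf1 (0.014).

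With single libraries left out, signs turned only for genes that did not pass. These ranged from −0.148 to 0.0006 (Esr1), −0.017 to 0.012 (Nr1h3), −0.39 to 0.352 (Nr1i3), −0.014 to 0.136 (Nr2f1), −0.030 to 0.101 (Nr6a1) and −0.014 to 0.031 (Hsd11b1). Of 657 gene values under the alternatives, 603 kept their direction and their side of the threshold. Except under endothelial scaling, 2 or 3 genes were lower beyond 2-fold, but not always the same ones, since Esr2, Ppargc1a, Nr3c2, Pgr and Esrrg each crossed that limit in at least 1 setting.

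The replicate numbers do not pair the libraries, which come from different mice. The correlation of the deviations of same-numbered libraries was 0.0304. This is a single value, since with 2 libraries per group both numbers must give the same. With the replicate number as a block, as many receptor and coactivator genes were higher and lower as without it. No call of a receptor, a coactivator or a list gene named by the rule changed. Depth limits Nr1h4, Nr1i2 and Rxrg, with at most 44 counts per library, and the 9 genes that were not tested. With 2 pools per group the spread is poorly known, and the mice's sex as read from RNA goes against the labels in all libraries.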
